A study of Homo sapiens with 12 samples.

Results

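The genes described here are the expressed members of the numbered ZNF family in HEK293 cells, a human embryonic kidney line. Chosen by their level in the DMSO libraries, they are the rows whose symbol is ZNF followed by digits only and whose mean level in the 3 DMSO libraries was at least 15 CPM (the count over the library total, times 1e6). Of 477 such symbols among 56634 rows, 173 reached that level, 304 did not, and 20 had no count in any library. Only the DMSO level chose the members, so those levels are a description, and the contrasts against DMSO share the libraries that chose them. RNA was sequenced in bulk from 12 libraries in 4 groups of 3 biological replicates, and the p-values measure the spread between these libraries. The DMSO group received 0.1% DMSO and the SnxB group 1 µM Senexin B, which blocks the paired kinases CDK8 and CDK19, both for 3 h. The TNF group had 1 h of DMSO and then 10 ng/mL TNFα for 2 h, and the TNF_SnxB group 1 h of Senexin B and then TNFα for 2 h. All cells were the same line, grown in the same medium, and the study asked how the inhibitor alters transcription with and without this cytokine.

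Most ZNF genes code for proteins with C2H2 zinc fingers, short folds that hold a zinc ion and read DNA bases. Many of them also carry a KRAB domain, which binds the co-repressor TRIM28 and through it recruits histone methyltransferases and heterochromatin proteins that silence transposable elements. Some members do other work, such as ZNF598, an E3 ubiquitin ligase that marks collided ribosomes. CDK8 and CDK19 belong to the kinase module of Mediator, the complex that links transcription factors to RNA polymerase II, and TNFα activates NF-kB target genes.

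Library totals ran from 8705277 to 50943310 counts, with the highest from TNF library 2, at 4.87 times the median total of the rest. All 173 members were among the 14822 genes tested, and the lowest count of a member in a library was 110. The tested genes were not held to 15 CPM. Shares and fold changes of members and of all tested genes therefore compare sets of unlike level. Pairs of libraries of a group had chi-square values, divided by the degrees of freedom, between 1.07 and 1.59, except that TNF_SnxB library 1 had 5.79 and 5.51 against libraries 2 and 3. Values with TNF_SnxB are therefore given with all 3 libraries, after correcting for the GC content and length of the transcripts, and with TNF_SnxB library 1 as the only library of its group. The summed level of 10 genes this line is known to express was 814 to 919 CPM, of which VIM gave 446 to 531, while NEFM stayed under 1 CPM in every library and PAX2 was at 0.329 to 1.31. All 5 leukocyte and all 4 endothelial markers stayed under 1 CPM. Of 5 fibroblast markers 3 stayed under 1 CPM throughout, while COL1A1 was at 13.7 to 17.4 CPM. The summed level of all 5 was 14.8 to 19.2 CPM. NFKBIA, an NF-kB target gene that codes for its inhibitor, was at 24.9 to 28.7 CPM in DMSO and 266 to 269 CPM in TNF. In such bulk samples fewer cells with a transcript and less of it per cell cannot be told apart.

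The members held 0.703% to 0.736% of all counts of a library. Their median DMSO level was 30.4 CPM, 37 exceeded 50 CPM and 9 exceeded 100 CPM. By CPM in DMSO the highest were ZNF207, a spindle and kinetochore protein (258 CPM), ZNF664 (222), ZNF598 (182), ZNF146 (181), the SCAN-domain factor ZNF24 (173), the co-repressor ZNF703 (146), ZNF638, which silences unintegrated retroviral DNA (138), and ZNF711 (136). Per kilobase of each gene's longest transcript in DMSO the order was ZNF598 at 54.0 ± 3.8 CPM per kb, ZNF146 at 48.0 ± 0.072, ZNF703 at 43.7 ± 3.2, ZNF664 at 43.4 ± 1.2 and ZNF768 at 42.2 ± 0.83 (SD, n = 3). This order depends on the transcript chosen, which the SD does not cover. ZNF207, divided by 13781 bases, was at rank 18. ZNF703, ZNF664 and ZNF768 did not differ beyond their spread, while ZNF598 was above ZNF146 in all 3 libraries. At the edge of the rule, ZNF408 (15.2 CPM), ZNF845 (15.2) and ZNF529 (15.5) were just inside, and ZNF70 (14.7), ZNF747 (14.6) and ZNF32 (14.5) just outside.

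The members shared features that the rule did not use. A total of 55 of the 173 (31.8%) lay on chromosome 19, against 6.63% of the tested genes with an annotation, followed by 18 on chromosome 7, 17 on chromosome 16 and 12 on chromosome 1. Their longest transcripts had a median GC content of 46.2% (range 33.8% to 71.1%) against 48.7% for all tested genes, and a median length of 4430 bases against 3380 (GENCODE release 29, GRCh38). The members on chromosome 19 were poorer in GC (median 44.5%) than the others (47.6%). Neither the share on chromosome 19 nor the low GC content was particular to the members. Of the 206 tested ZNF genes under 15 CPM, 55.3% lay on chromosome 19, and their median GC content was 43.0%. Exons of 79 members overlap those of another gene, and for 35 of them that gene was at 1 CPM or more. The strand setting of the counting is not given in the sources used here, so reads of such pairs cannot be told apart.

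Senexin B alone lowered ZNF711 and few other members. Of the 173, 4 were called lower and none higher in SnxB against DMSO (edgeR quasi-likelihood F test, two-sided, adjusted p under 0.05 over all 14822 genes). That is 2.31%, near the 2.03% called among all tested genes, of which 0.344% were higher and 1.69% lower. The 4 were ZNF711, ZNF551, ZNF324 and ZNF326. ZNF711 is an X-linked factor that brings the histone demethylase PHF8 to promoters and is mutated in inherited intellectual disability. ZNF551 and ZNF324 are KRAB zinc finger proteins, and ZNF326 is part of a complex that couples splicing to elongation by RNA polymerase II.

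The promoters of these 4 genes are printed because the inhibitor targets a regulator of transcription start. Each window runs from 250 bases before to 50 bases after the gene's start, 5′ to 3′ on the plus strand, which is the gene's own strand for all 4 (RefSeq, GRCh38.p14). Capitals mark matches, on either strand, to the letters CACGTG (E-box), GGGCGG (GC box), CCGGAAG (ETS) and CCAAT. The windows are chrX:85243741-85244040, chr19:57681727-57682026, chr19:58466830-58467129 and chr1:89994860-89995159, in the order below.
ZNF711: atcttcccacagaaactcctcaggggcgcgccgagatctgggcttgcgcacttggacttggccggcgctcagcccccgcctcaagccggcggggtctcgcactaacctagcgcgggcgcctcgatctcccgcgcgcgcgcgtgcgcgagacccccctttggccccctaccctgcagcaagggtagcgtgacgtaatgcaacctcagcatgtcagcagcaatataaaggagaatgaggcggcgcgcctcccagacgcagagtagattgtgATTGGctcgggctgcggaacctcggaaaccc
ZNF551: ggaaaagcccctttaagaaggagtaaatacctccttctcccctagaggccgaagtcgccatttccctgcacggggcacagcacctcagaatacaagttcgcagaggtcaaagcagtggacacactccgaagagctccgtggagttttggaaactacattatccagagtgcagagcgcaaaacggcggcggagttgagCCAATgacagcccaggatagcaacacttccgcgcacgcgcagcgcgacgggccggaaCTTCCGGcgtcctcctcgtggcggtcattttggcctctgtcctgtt
ZNF324: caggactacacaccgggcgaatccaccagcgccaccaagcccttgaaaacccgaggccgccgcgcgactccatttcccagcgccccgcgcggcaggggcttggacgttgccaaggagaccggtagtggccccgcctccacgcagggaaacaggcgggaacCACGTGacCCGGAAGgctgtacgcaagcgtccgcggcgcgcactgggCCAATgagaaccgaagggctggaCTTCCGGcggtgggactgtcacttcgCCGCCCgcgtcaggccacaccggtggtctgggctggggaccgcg
ZNF326: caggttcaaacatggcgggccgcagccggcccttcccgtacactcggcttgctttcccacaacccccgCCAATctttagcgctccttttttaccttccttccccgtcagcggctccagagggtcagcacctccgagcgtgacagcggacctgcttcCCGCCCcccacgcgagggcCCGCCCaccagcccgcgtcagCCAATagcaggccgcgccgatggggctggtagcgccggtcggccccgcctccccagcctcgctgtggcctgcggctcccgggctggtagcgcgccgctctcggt

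Every window held a CCAAT match, 1 each in ZNF711, ZNF551 and ZNF324 and 2 in ZNF326. The window of ZNF711 held no other match. ETS letters occurred 1 time in ZNF551 and 2 times in ZNF324, which also held 1 E-box and 1 GC box, and ZNF326 held 2 GC boxes. None of the 4 held the AP-1 letters TGANTCA or the CRE letters TGACGTCA. The promoter table held 155 of the 173 members. Of these 40.6% held the ETS letters and 65.8% the GC box, against 10.7% and 44.6% of all 27305 promoters of that length. CCAAT occurred in 41.3% against 35.7%, the E-box in 5.81% against 7.43%, AP-1 in 5.81% against 7.76% and CRE in 6.45% against 1.98%. These are letter matches and not binding sites. The members were chosen by their DMSO level, while the 27305 promoters were not held to any level of expression. The shares therefore compare unlike sets, and whether the differences are particular to ZNF genes was not tested.

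ZNF711 (chrX:85244032-85273362, GRCh38) was at 131, 139 and 137 CPM in the DMSO libraries and at 67.4, 59.1 and 62.4 in the SnxB libraries. The groups did not overlap, and the log2 fold change was -1.14 (SE 0.0554, adjusted p = 2.35e-15 by edgeR). The gene was called lower in all 20 alternative analyses of this contrast.
ZNF551 (chr19:57681969-57717301) was at 17.1, 16.3 and 16.6 CPM in DMSO and 12.6, 12.0 and 13.8 in SnxB. That is a log2 fold change of -0.41 (SE 0.0954, adjusted p = 0.0156 by edgeR).
ZNF324 (chr19:58467045-58475436) was at 27.5, 30.9 and 29.5 CPM in DMSO and 24.9, 24.2 and 22.7 in SnxB, a log2 fold change of -0.32 (SE 0.0783, adjusted p = 0.0255 by edgeR). Its exons overlap those of ZNF446 on the same strand, a gene at 16.5 CPM in DMSO.
ZNF326 (chr1:89995112-90035531) was at 79.6, 78.1 and 76.6 CPM in DMSO and 72.4, 68.1 and 65.6 in SnxB, a log2 fold change of -0.21 (SE 0.0548, adjusted p = 0.0320 by edgeR). For none of these 3 genes did the 2 groups overlap, but the differences were 0.21 to 0.41 on the log2 scale where ZNF711 reached more than 1.

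The other 169 members were not called. Of the 173, 171 had an estimate within 1.25-fold of DMSO, against 91.4% of all tested genes, with a median standard error of 0.0775. Their median log2 fold change was 0.03, against 0.00 over all tested genes, and 105 were above 0. A total of 25 had an unadjusted p under 0.05. The calls of ZNF551, ZNF324 and ZNF326 depended on single libraries. Without DMSO library 1 there were 3 calls, 2 lower and 1 higher. Without DMSO library 3 or SnxB library 2 ZNF711 was left as the only call, and without DMSO library 2, SnxB library 1 or SnxB library 3 there were 2. ZNF326 was also not called when any TNF library was left out. With TNF_SnxB library 1 left out, 14 members were called, 7 higher and 7 lower (5.82% of all genes), and the same number was called with library 1 as the only TNF_SnxB library (5.66% of all genes). After the GC and length correction 10 were called (4.85% of all genes), the same 4 plus ZNF202 (-0.28), ZNF367 (-0.23) and ZNF703 (-0.15) lower and ZNF500, ZNF510 and ZNF92 (0.26, 0.26 and 0.25) higher.

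**Figure D1:**
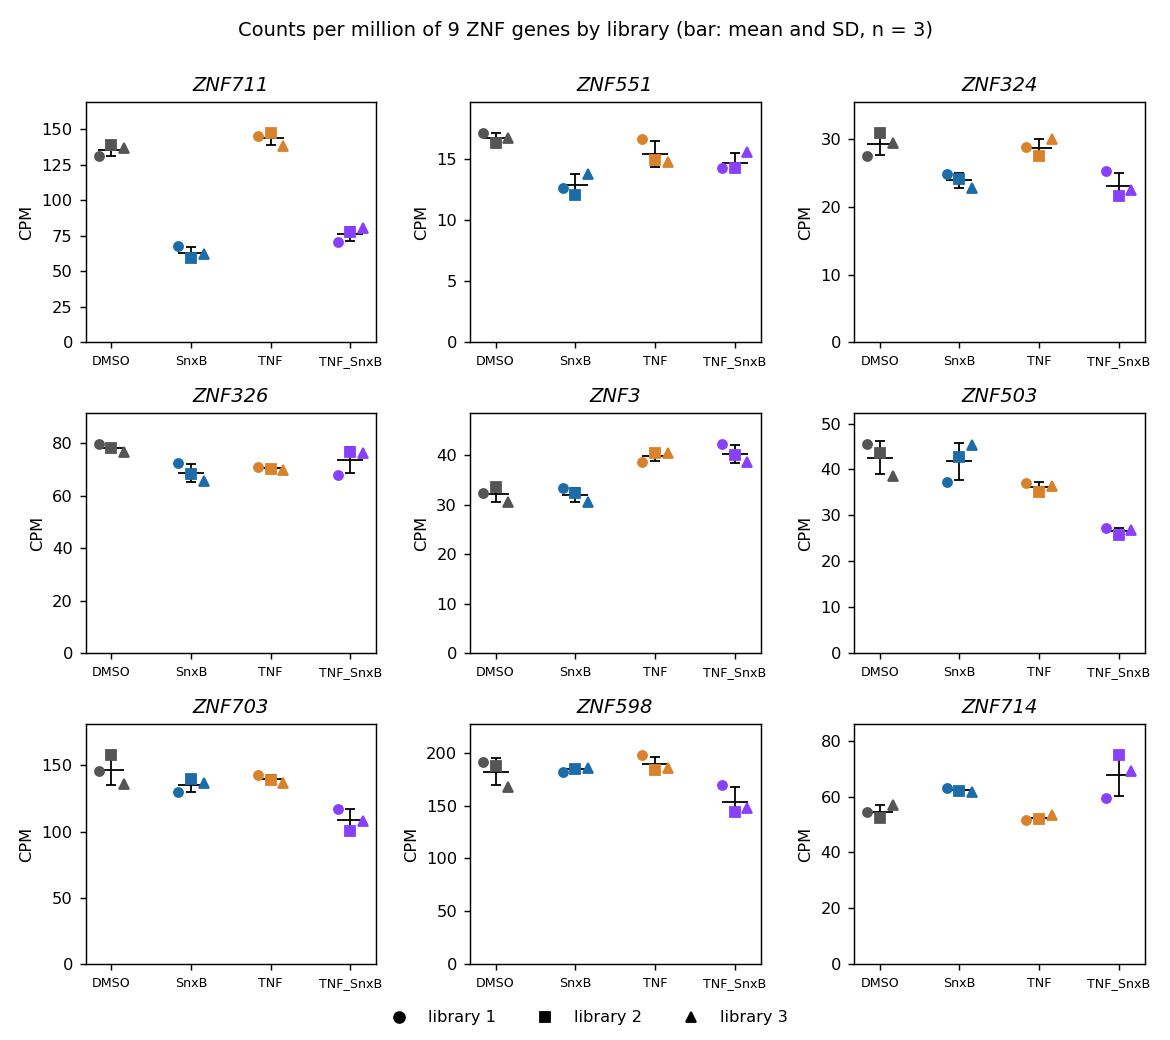
Levels in CPM (vertical axes, starting at 0) of 9 ZNF genes in each of the 12 libraries, by group; symbols are libraries 1 to 3 and bars the mean and SD (n = 3). ZNF711 is lower in all 6 Senexin B libraries, ZNF3 higher in all 6 TNFα libraries, ZNF503 and ZNF703 lowest in TNF_SnxB, and in ZNF714 and ZNF598 TNF_SnxB library 1 lies nearer the other groups than libraries 2 and 3 do.

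In cells that also received TNFα, the inhibitor again lowered ZNF711, and it lowered the related co-repressors ZNF703 and ZNF503. With all libraries, 41 members were called higher and 29 lower in TNF_SnxB against TNF (edgeR, adjusted p under 0.05). That is 70 of 173 or 40.5%, where 27.2% of all tested genes were called (13.3% higher and 13.9% lower). All tested genes were not held to 15 CPM, and the ZNF genes under that level, given below, had a smaller share. With TNF_SnxB library 1 as the only library of its group, which is then assumed to vary like the other groups, 1 member was called higher and 4 lower. That is 2.89% against 2.64% of all genes (0.727% higher and 1.91% lower). After the GC and length correction 11 were higher and 16 lower, 15.6% against 11.2% of all genes (4.32% higher and 6.91% lower), and 15 of these 27 were among the 70. Leaving out single TNF_SnxB libraries gave 99 calls without library 1 (44.8% of all genes), 33 without library 2 (13.5%) and 38 without library 3 (12.5%).

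ZNF711 was at 145, 147 and 138 CPM in TNF and at 70.5, 77.5 and 80.8 in TNF_SnxB. The log2 fold change was -0.94 (SE 0.0509, adjusted p = 4.11e-14 by edgeR), -1.14 after the correction and -1.05 with library 1 alone. The inhibitor lowered this gene in both settings, and the difference between its effects with and without TNFα did not pass the test (interaction 0.20, SE 0.0758, adjusted p = 0.113 by edgeR; -0.01 after the correction).

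ZNF703 and ZNF503 are paralogs of the NET family of transcriptional co-repressors, and ZNF703 is often amplified in luminal breast cancer. ZNF703 (chr8:37695751-37700021) was at 143, 139 and 137 CPM in TNF and 117, 100 and 108 in TNF_SnxB, groups that did not overlap. Its log2 fold change of -0.39 (SE 0.0540, adjusted p = 7.93e-06 by edgeR) was -0.15 after the correction and -0.26 with library 1 alone, and it was called in all 20 alternatives.
ZNF503 (chr10:75397830-75401906) was at 37.2, 35.02 and 36.4 CPM in TNF and 27.2, 25.8 and 26.8 in TNF_SnxB, with the 3 TNF_SnxB libraries close together. The log2 fold change was -0.46 (SE 0.0719, adjusted p = 5.18e-05 by edgeR), -0.26 after the correction and -0.41 with library 1 alone. GENCODE gives the symbol ZNF503 to a protein-coding gene and to an overlapping noncoding gene, and ZNF503-AS2 lies opposite, so the row may hold reads of more than the coding gene.

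**Figure D2:**
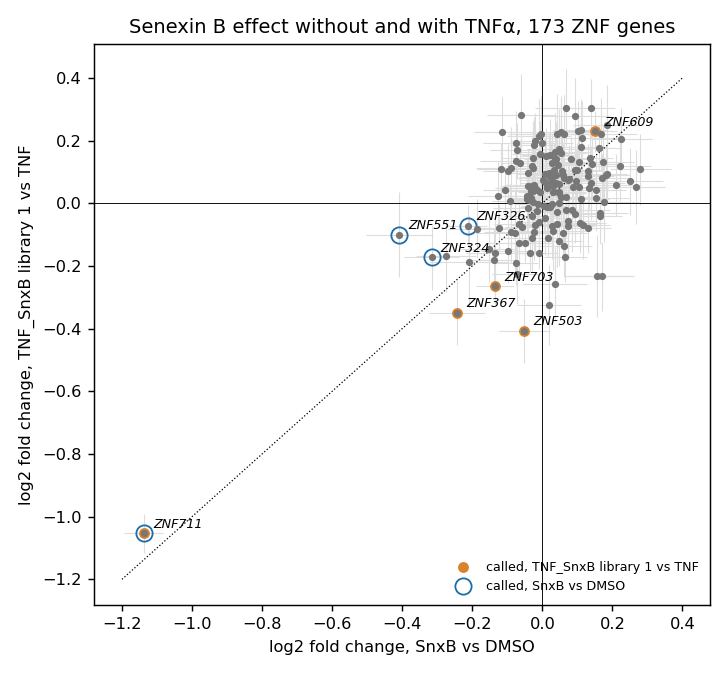
Log2 fold change of each of the 173 members for Senexin B without TNFα (horizontal axis) and with TNFα, TNF_SnxB library 1 against the 3 TNF libraries (vertical axis); bars are standard errors, the dotted line marks equal effects, and the contrasts share no library. ZNF711 stands apart at about -1.1 on both axes, ZNF703, ZNF367 and ZNF503 are the other members called lower with TNFα, ZNF609 is called higher, and the remaining members scatter around 0, more widely on the vertical axis.

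The other members called with library 1 alone were ZNF367, lower by -0.35 (adjusted p = 0.0365 by edgeR), and ZNF609, a cohesin loader partner, higher by 0.23 (adjusted p = 0.0333). Neither was called with all 3 libraries before the correction (-0.12 and 0.07), while after it ZNF367 was called lower (-0.19, adjusted p = 0.0235 by edgeR). ZNF367 was at 33.0, 31.4 and 35.3 CPM in TNF and 25.8, 32.6 and 32.6 in TNF_SnxB, so its groups overlapped and library 1 was the lowest.

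Of the 41 members called higher with all libraries, 40 had a GC content below the median of tested genes. ZNF714 (GC 37.5%, chr19:21082159-21125270) was at 51.5, 52.1 and 53.2 CPM in TNF and 59.6, 74.7 and 69.2 in TNF_SnxB (0.36, SE 0.0589, adjusted p = 8.41e-05 by edgeR). ZNF678 (GC 34.0%) was at 36.2, 34.7 and 33.7 CPM in TNF and 39.8, 49.2 and 48.8 in TNF_SnxB. ZNF254 (GC 34.1%) was at 26.0, 26.2 and 26.8 against 31.2, 34.4 and 36.8 CPM, and ZNF680 (GC 33.8%) at 15.8, 15.8 and 15.1 against 18.9, 23.4 and 21.9 CPM.
In all 4 the groups did not overlap and TNF_SnxB library 1 was the closest to TNF. Their log2 fold changes of 0.36, 0.39, 0.36 and 0.44 were 0.16, 0.13, 0.12 and 0.21 after the correction, where ZNF714 alone of the 4 was called (adjusted p = 0.00389 by edgeR). With library 1 alone they were 0.18, 0.18, 0.23 and 0.25, and none was called. ZNF267 (0.30), the promoter-binding factor ZNF148 (0.29), ZNF24 (0.26) and ZNF107 (0.34) were also called higher with all libraries, and none of them after the correction or with library 1 alone.

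Among the members called lower, ZNF598 (GC 65.0%) was at 197, 183 and 186 CPM in TNF and 169, 144 and 147 in TNF_SnxB, a log2 fold change of -0.32 (SE 0.0535, adjusted p = 8.80e-05 by edgeR). After the correction it was -0.08 and with library 1 alone -0.16, neither of them called. ZNF579 (GC 65.9%) was at 25.8, 25.2 and 27.2 CPM in TNF and 22.1, 16.6 and 17.4 in TNF_SnxB (-0.51). It was still called after the correction (-0.25, adjusted p = 0.00677 by edgeR) but not with library 1 alone (-0.23, adjusted p = 0.347). ZNF324 was called lower here too, at 28.9, 27.5 and 30.01 against 25.3, 21.6 and 22.4 CPM (-0.33, adjusted p = 0.00117 by edgeR). It was still called after the correction (-0.18, adjusted p = 0.0466) but not with library 1 alone (-0.17, adjusted p = 0.512). ZNF282 (-0.25) and ZNF142 (-0.26) were called with all libraries and with neither of the others.

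TNF_SnxB library 1 differed from libraries 2 and 3 along the GC content of the members. Taken as log2 level in library 1 minus the mean of libraries 2 and 3, the median over the 173 members was -0.02, with a range from -0.49 to 0.65. Among the 99 members below the median GC content of tested genes the median was -0.11, and library 1 was the lower in 87. Among the 74 at or above it the median was 0.18, and library 1 was the higher in 63. The Spearman correlation with GC content was 0.80 over the 173 members and 0.66 over 13426 tested genes, as a description across genes, which are not independent replicates.

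ZNF292 (GC 36.5%) had the lowest difference, with 28.2 CPM in library 1 and 41.6 and 38.4 in libraries 2 and 3. It was followed by ZNF92 (-0.35), ZNF277 (-0.34), ZNF431 (-0.34) and ZNF138 (-0.34). ZNF771 had the highest, with 33.3 CPM in library 1 and 19.9 and 23.1 in libraries 2 and 3, followed by ZNF853 (0.51), ZNF580 (0.42), ZNF526 (0.42) and the SCAN-domain factor ZNF444 (0.41).
After the correction the median over the members was 0.02 and the correlation with GC content -0.07, while ZNF771 (GC 54.9%) still differed by 0.53. Exons of ZNF771 overlap those of DCTPP1 on the opposite strand, a gene at 149 CPM in DMSO, so the row may hold reads of both. The correction was fitted to these same libraries and subtracts the GC trend, so the small correlation follows from it. The 5 members lowest in library 1 had GC contents of 34.7% to 42.8%, and the 5 highest 54.9% to 68.6%.

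Set against the mean of all 12 libraries, the trend lay in TNF_SnxB libraries 2 and 3. Their deviations correlated with GC content at -0.80 and -0.79 over the members, against 0.11 for library 1, 0.48 to 0.54 for the TNF libraries, 0.21 to 0.33 for the SnxB libraries and -0.21 to 0.38 for the DMSO libraries. The calls in TNF_SnxB against TNF split the same way. Of the 99 members of lower GC 40 were called higher and 1 lower, the latter being ZNF711, and of the 74 of higher GC 1 was called higher and 28 lower. Over all tested genes the lower-GC part had 1865 higher and 143 lower calls, and the higher-GC part 48 and 1817. Members on chromosome 19 had a call share of 41.8% and those elsewhere 39.8%.

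**Figure D3:**
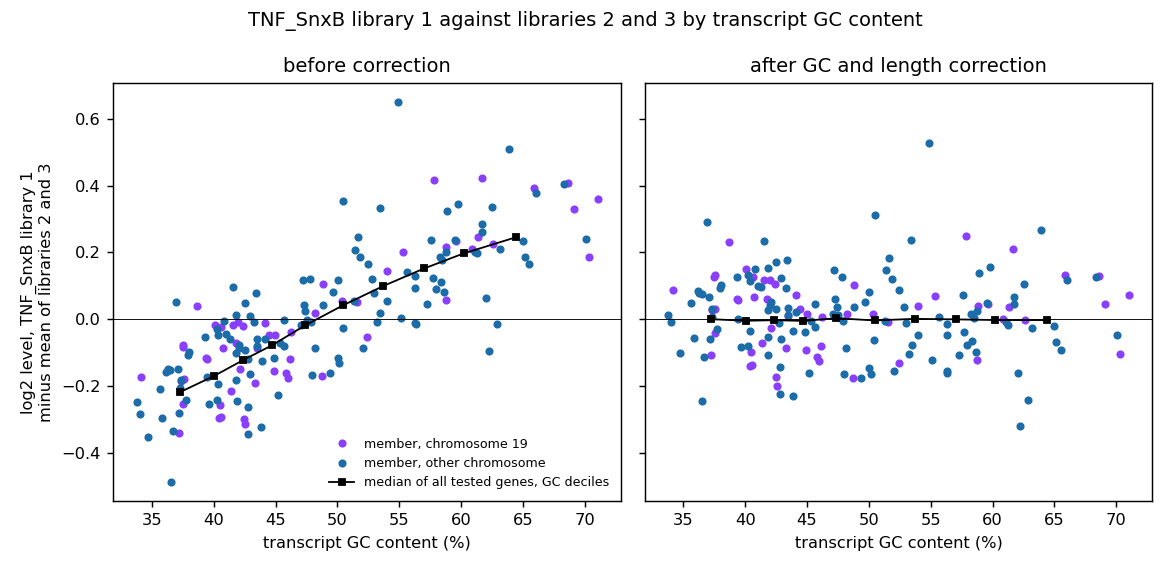
Log2 level in TNF_SnxB library 1 minus the mean of libraries 2 and 3 (vertical axes) against transcript GC content in percent (horizontal axes) for the 173 members, before and after the GC and length correction; black squares are medians of all tested genes in deciles of GC content. Before the correction the members run from about -0.2 at the lowest GC decile to about 0.2 at the highest, along the all-gene line. After the correction, which subtracts this trend by design, they scatter around 0.

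TNFα alone raised ZNF3 and lowered ZNF503, and no other member passed the test. These 2 calls in TNF against DMSO are 1.16% of the members, where 2.02% of all tested genes were called (1.43% higher and 0.594% lower). The median log2 fold change was 0.01 against 0.00 over all genes, 172 of 173 estimates lay within 1.25-fold, and 19 members had an unadjusted p under 0.05.
ZNF3 (chr7:100064033-100082548), a KRAB zinc finger gene, was at 32.3, 33.5 and 30.6 CPM in DMSO and 38.7, 40.5 and 40.5 in TNF. The log2 fold change was 0.32 (SE 0.0609, adjusted p = 0.00133 by edgeR). In the presence of Senexin B it was at 33.3, 32.3 and 30.5 CPM in SnxB and 42.2, 40.03 and 38.6 in TNF_SnxB, a log2 fold change of 0.33 (SE 0.0662, adjusted p = 0.00206 by edgeR). In both contrasts the groups did not overlap and all 20 alternatives called it. The interaction was 0.00 (SE 0.0904, adjusted p = 0.985 by edgeR). An exon of ZSCAN21, a gene at 8.97 CPM in DMSO, overlaps ZNF3 on the opposite strand.

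ZNF503 was at 45.5, 43.6 and 38.7 CPM in DMSO and 37.2, 35.02 and 36.4 in TNF, groups that did not overlap. The log2 fold change was -0.25 (SE 0.0671, adjusted p = 0.0497 by edgeR). It lost the call when DMSO library 1 or 2, SnxB library 2 or 3, any TNF library or TNF_SnxB library 3 was left out. The call was also lost with no low-count filter (adjusted p = 0.0679 by edgeR) and with DESeq2 (adjusted p = 0.154), while the GC correction gave -0.29 (adjusted p = 0.000257 by edgeR). With Senexin B present the TNFα difference was -0.65 (SE 0.0767, adjusted p = 9.18e-07 by edgeR), from 37.2, 42.7 and 45.3 CPM in SnxB to 27.2, 25.8 and 26.8 in TNF_SnxB. That call held in all 20 alternatives, with -0.61 from library 1 alone. After the correction 8 members were called in TNF against DMSO (3.83% of all genes), among them ZNF711 at 0.14 (adjusted p = 0.00584 by edgeR), and there were 9 without TNF_SnxB library 1 (5.78% of all genes) or with it alone in its group (5.62%).

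TNF_SnxB against SnxB, the TNFα effect under the inhibitor, had 24 members called higher and 14 lower with all libraries, 22.0% against 14.2% of all tested genes (7.38% higher and 6.83% lower). After the correction 6 were called (4.76% of all genes), ZNF3, ZNF101, ZNF473 and ZNF664 higher and ZNF503 and ZNF384 lower. With library 1 alone ZNF3 and ZNF503 were the only calls (1.16% against 1.43% of all genes). ZNF711 was called higher with all libraries (0.29, SE 0.0584, adjusted p = 0.00202 by edgeR), at 67.4, 59.1 and 62.4 CPM in SnxB and 70.5, 77.5 and 80.8 in TNF_SnxB. It was not called after the correction (adjusted p = 0.123) or with library 1 alone (adjusted p = 0.314). The other calls named by size of p, ZNF267, the SUMO ligase ZNF451, ZNF678, ZNF24, ZNF644 and ZNF254 higher and ZNF703, ZNF598, ZNF579, ZNF444, ZNF580, ZNF865 and ZNF618 lower, were likewise not called in either. Among these, ZNF703 went from 130, 140 and 136 CPM in SnxB to 117, 100 and 108 in TNF_SnxB, and ZNF598 from 182, 185 and 185 to 169, 144 and 147. ZNF267 and ZNF451 were higher by 0.32 and 0.27 on the log2 scale, and ZNF579 and ZNF444 lower (-0.45 and -0.33). In ZNF703, ZNF598 and ZNF579 TNF_SnxB library 1 was the closest of its group to SnxB. The count was 80 without TNF_SnxB library 1 (46.2% against 35.7% of all genes), and 9 and 7 without libraries 2 and 3 of that group in turn (3.82% and 3.43% of all genes). Without SnxB libraries 1, 2 and 3 it was 17, 24 and 13, with 6.04%, 6.66% and 4.99% of all genes called.

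The 2 inhibitor contrasts were also compared with each other. The difference of the inhibitor effect with and without TNFα was called for 7 members, all lower (4.05% against 2.5% of all tested genes, 0.891% higher and 1.61% lower), and 60 had an unadjusted p under 0.05. All 7 had a GC content at or above the median of tested genes, and none was called after the correction or with library 1 alone. The direction of the calls also varied. DESeq2 called 2 higher and 6 lower (3.03% of all genes), among them 4 of the 7, and without TNF_SnxB library 1 there were 36 higher and 34 lower (30% of all genes). For the rest of the 7, ZNF414, ZNF503 and ZNF579, DESeq2 may have given no adjusted p. In the corrected and library 1 analyses 23 and 15 members had an unadjusted p under 0.05, and 0.263% and 0.124% of all genes were called.

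**Figure D4:**
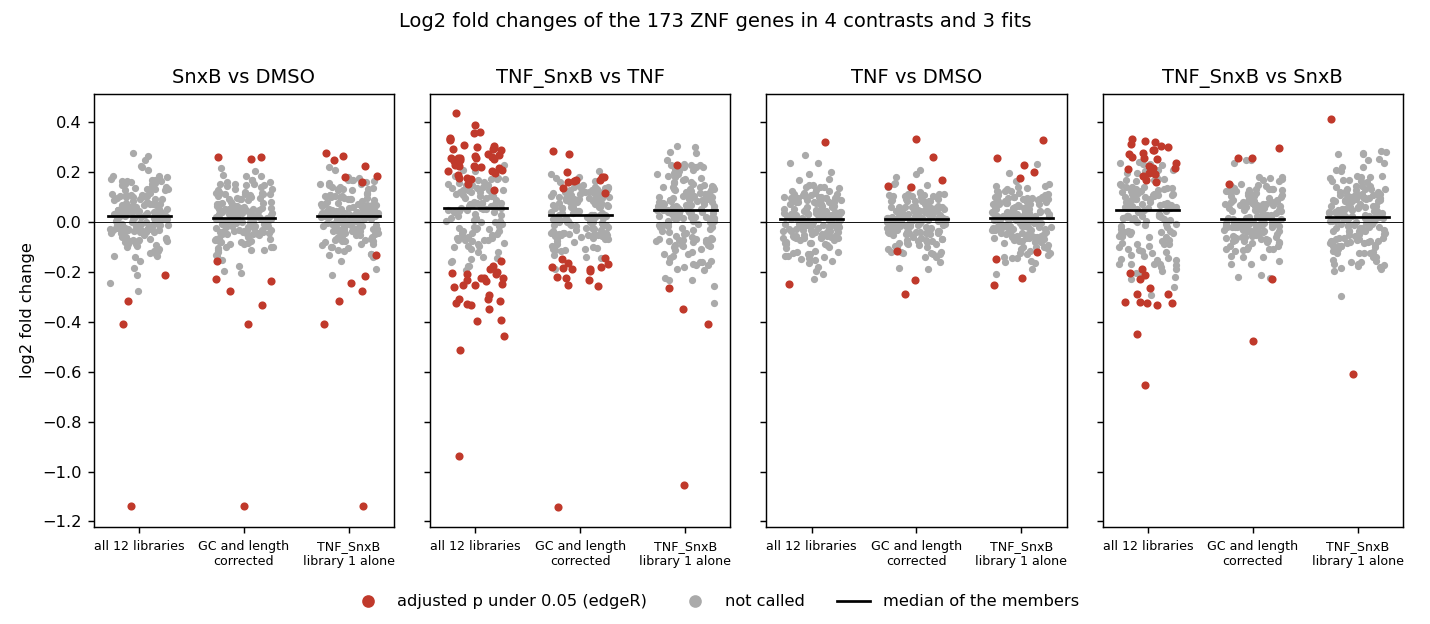
Log2 fold changes (vertical axis) of the 173 members in the 4 pairwise contrasts, each from the fit with all 12 libraries, after GC and length correction, and with TNF_SnxB library 1 alone; red points passed adjusted p under 0.05 (edgeR) and black lines are medians. Calls in the contrasts with TNF_SnxB go from 70 to 27 and 5 and from 38 to 6 and 2, ZNF711 stays near -1 in both inhibitor contrasts, and contrasts among the other groups have 2 to 14 calls.

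The ZNF genes under 15 CPM, of which 206 were tested, had 2 calls in SnxB against DMSO (0.971% against 2.03% of all genes), both higher. ZNF517 was at 3.26, 3.91 and 3.16 CPM in DMSO and 6.66, 5.06 and 5.23 in SnxB (0.69, SE 0.171, adjusted p = 0.0264 by edgeR), and ZNF606 at 7.12, 9.43 and 8.54 against 12.3, 12.0 and 10.4 CPM (0.45, SE 0.121, adjusted p = 0.0485). Neither was called by DESeq2. In TNF against DMSO none of the 206 was called by edgeR or DESeq2, with 14 and 2 at an unadjusted p under 0.05. In TNF_SnxB against TNF 19 were higher and 6 lower (12.1% against 27.2% of all genes), and after the correction 5 and 1 (2.91% against 11.2%).

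Of 31 genes of the KRAB co-repressor pathway, none was called in SnxB against DMSO by edgeR or by DESeq2 (6 at an unadjusted p under 0.05 in each), with a median log2 fold change of -0.01. After the correction 3 were called lower (9.68% against 4.85% of all genes), UHRF1 (-0.17), the heterochromatin protein gene CBX3 (-0.12) and the maintenance DNA methyltransferase gene DNMT1 (-0.10). With TNF_SnxB library 1 alone in its group these 3 had log2 fold changes of -0.17, -0.14 and -0.09. In that fit SUMO2 had -0.08 and DNMT3A 0.28. Only effect sizes are given from that fit for this contrast, so they do not show that these genes went uncalled. TRIM28, the KRAB-binding co-repressor itself, had a mean of 1124 CPM in DMSO and 1121 in SnxB. In TNF against DMSO CHD4, the helicase of the NuRD complex, was the only call of the 31 with all libraries before the correction. Of all tested genes 2.02% were called there. CHD4 was at 401, 398 and 396 CPM in DMSO and 476, 469 and 464 in TNF (0.24, SE 0.0333, adjusted p = 1.72e-05 by edgeR). CBX3 was also called, lower, after the correction (-0.08, adjusted p = 0.0420) and with library 1 alone (-0.11), where TRIM28 was called higher (0.06, adjusted p = 0.0404). In TNF_SnxB against TNF 9 were higher, led by MORC3 (0.24) and ATRX (0.21), and 5 lower, led by UHRF1 (-0.32) and TRIM28 (-0.25), together 45.2% against 27.2% of all genes. After the correction 0 were higher and 2 lower (6.45% against 11.2%), and with library 1 alone none was called (5 at an unadjusted p under 0.05). TRIM28 (GC 63.7%) was at 1126 CPM in TNF_SnxB library 1 and 944 and 932 in libraries 2 and 3.

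Among 57 C2H2 genes under other symbols, mostly ZBTB genes with a BTB domain, 2 were higher in SnxB against DMSO. Of all tested genes 0.344% were called higher in this contrast. ZBTB17, which codes for the MYC partner MIZ1, was at 22.3, 24.1 and 19.7 CPM in DMSO and 29.1, 28.1 and 29.4 in SnxB (0.37, SE 0.0816, adjusted p = 0.0105 by edgeR). ZBTB39 was at 42.0, 41.1 and 38.2 CPM in DMSO and 48.1, 50.7 and 49.6 in SnxB (0.26, adjusted p = 0.0109). TNFα alone raised ZBTB10 (0.40), ZBTB21 (0.30) and ZBTB5 (0.28) and lowered ZBTB18 (-0.30) and ZBTB12 (-0.23). These 5 calls are 8.77% of the list, against 2.02% of all genes. In TNF_SnxB against TNF 23 were higher and 5 lower (49.1% against 27.2% of all genes), 8 and 2 after the correction (17.5% against 11.2%), and 1 and 2 with library 1 alone (5.26% against 2.64%).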

How the data were processed

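RNA-seq counts were analysed for 12 libraries of HEK293 cells. The authors deposited whole-number counts per gene for all libraries. Per the submitters' processing notes, reads were mapped to hg38 (GRCh38) with STAR 2.4, handled with SAMtools 1.2 and counted with featureCounts of Subread 1.4.6. For the annotation and the strand setting, nothing is given in the sources used here. Total RNA went into a TruSeq RNA kit, per the labels' protocols. Library totals were 8705277 to 50943310 counts.

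From these counts, genes were kept by edgeR's filterByExpr (14822 genes), scaled by TMM and fitted with edgeR 4.0.16 (R 4.3.3) as 4 group means over all 12 libraries. Contrasts used the quasi-likelihood F test, two-sided, with Benjamini-Hochberg adjustment over all genes tested and a threshold of 0.05. Standard errors are the absolute log2 fold change over the square root of F. Library 1 against libraries 2 and 3 of TNF_SnxB was taken on log2 CPM with TMM scaling and a prior count of 2. The GC and length correction subtracted, per library, a loess trend (span 0.4) on the GC content and length of each gene's longest transcript (GENCODE 29), known for 90.6% of tested genes. On simulated counts of 14822 genes, the SnxB against DMSO test recovered 73% of genes changed 1.5-fold and 88% of those changed 2-fold. It also called 8 unchanged genes. The changed genes were drawn from all tested genes at any level, so these rates are not those of the members. No change below 1.5-fold was simulated.

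The members and the gene lists were chosen with earlier results of these data known. Genes were named by rule: up to 8 called members with the smallest adjusted p per contrast and direction, the 8 highest in DMSO, the 3 on each side of the threshold, the 5 highest and 5 lowest in library 1 against libraries 2 and 3, and up to 4 called genes of each other list. ZNF367, ZNF609 and the members named for the corrected analysis were chosen after their values were seen. Alternatives were DESeq2 1.42.0, other scaling and filters, a replicate block, only the groups compared, other member thresholds, and leaving out libraries. No table of proteins was used here, so members were not divided by KRAB domain.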

Additional observations from a re-analysis of the deposited data

Results flagged for a closer look

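For 7 members the effect of Senexin B differed between cells with and without TNFα by the interaction term (edgeR quasi-likelihood F test, adjusted over 14822 genes). In each the difference was negative, lower with TNFα than without.

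ZNF579 had the largest, -0.68 (SE 0.125, adjusted p = 0.0171 by edgeR). It was at 22.9, 23.6 and 19.6 CPM in DMSO, 24.6, 25.2 and 25.7 in SnxB, 25.8, 25.2 and 27.2 in TNF and 22.1, 16.6 and 17.4 in TNF_SnxB. ZNF444 differed by -0.47 (adjusted p = 0.0298), with 60.1 CPM in TNF_SnxB library 1 and 43.2 and 48.3 in libraries 2 and 3. In both genes TNF_SnxB library 1 was the highest of its group. ZNF414 differed by -0.55 (adjusted p = 0.02996), with 15.7, 13.4 and 13.7 CPM in TNF_SnxB. The ribosome-linked ubiquitin ligase ZNF598 differed by -0.32 (adjusted p = 0.0336), with 169, 144 and 147 CPM in TNF_SnxB.

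The co-repressor ZNF503 differed by -0.41 (adjusted p = 0.0375), and its TNF_SnxB libraries lay together at 27.2, 25.8 and 26.8 CPM. ZNF142 differed by -0.33 (adjusted p = 0.0380) and ZNF335, a subunit of histone methyltransferase complexes, by -0.35 (adjusted p = 0.0402). After the GC and length correction the values were -0.40 for ZNF579, -0.12 for ZNF444, -0.33 for ZNF414, -0.05 for ZNF598 and -0.19 for ZNF503, and none of the 7 was called. With TNF_SnxB library 1 alone they were -0.40, -0.19, -0.39, -0.15 and -0.36, and again none was called. ZNF414, ZNF503 and ZNF579 were not among the DESeq2 calls. Each had 18 alternative results for the interaction, against 19 for ZNF444, ZNF598, ZNF142 and ZNF335. DESeq2 may therefore have given them no adjusted p, which is not the same as a failed test.

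The count of 7 also rested on single libraries. It was 0 without DMSO library 3, SnxB library 2 or 3, TNF library 1 or 3, or TNF_SnxB library 2 or 3, and 1 without DMSO library 1, SnxB library 1 or TNF library 2. In these analyses at most 0.107% of all genes were called. It was 8 without DMSO library 2 (2.22% of all genes) and 70 without TNF_SnxB library 1 (30% of all genes), 36 of them higher and 34 lower.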

How the results depend on the processing

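Counts of called members moved by more than 1.5 times in the settings below, and the cause was not tested. The share of all tested genes called moved as well. With only the groups compared it was 5.19% in SnxB against DMSO and 16.8% in TNF_SnxB against TNF. In TNF against DMSO it was then 5.34%, and in TNF_SnxB against SnxB 3.54%. With no low-count filter it was 2.25% for the interaction, and with DESeq2 1.58% for TNF against DMSO. The 30 CPM threshold left 88 of the 173 members, so counts at that level come from a shorter list. SnxB against DMSO had 4 calls, and 10 with the GC and length correction, 11 with only the groups compared, 14 with TNF_SnxB library 1 alone, 13 with both, and 2 among members at 30 CPM or more. TNF_SnxB against TNF had 70, and in the same order 27, 46, 5, 7 and 39. TNF against DMSO had 2, and 8, 8, 9 and 8 in the first 4 of these, with 1 by DESeq2. TNF_SnxB against SnxB had 38, and 6, 9, 2 and 2. The interaction had 7, and 0 with the correction, with library 1 alone and with both (unadjusted p under 0.05 in 23 and 15 members in the first 2), and 15 with no low-count filter (2 higher and 13 lower). Leaving out a library gave 1 to 14, 33 to 99, 1 to 9, 7 to 80 and 0 to 70 calls in these contrasts, and medians of 0.0148 to 0.0267, 0.0438 to 0.0672, 0.00368 to 0.0203, 0.0302 to 0.0673 and 0.0102 to 0.0541. The highest counts all came without TNF_SnxB library 1.

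The median log2 fold change of members, not computed with DESeq2, was above 0 in the alternatives run with edgeR. For SnxB against DMSO (0.0265) it was 0.0113 with no filter, 0.0180 with the correction, 0.0180 with correction and library 1 alone, and 0.00499 at 30 CPM or more. For TNF_SnxB against TNF (0.0568) these were 0.0407, 0.0285, 0.0360 and 0.0379. For TNF against DMSO (0.0131) it was 0.0315 with no filter. For TNF_SnxB against SnxB (0.0490) it was 0.0674 with no filter, 0.0138 corrected, 0.0214 with library 1 alone, 0.0272 with both, 0.0374 at 30 CPM or more and 0.0335 with the threshold over all 12 libraries. For the interaction (0.0308) it was 0.0131 corrected, 0.0147 with library 1 alone, 0.0167 with both and 0.0445 at 10 CPM or more. Library 1 against libraries 2 and 3 went from -0.0160 to 0.0157 with the correction. Of 890 results for single named members, 660 kept direction and side of the threshold, 228 lost the call, and 2 changed sign, ZNF444 (0.0277) and ZNF865 (0.0114) in TNF_SnxB against SnxB with correction and library 1 alone.

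Deviations of libraries with the same replicate number correlated at -0.0402 to 0.0941 over 18 pairs, so no pairing was visible. These deviations hold counting noise and, in TNF_SnxB, the difference of library 1, so pairing is not excluded. With a replicate block the counts were 4, 72, 2, 38 and, for the interaction, 14 (3 higher and 11 lower, against 0 and 7 without it). In TNF against DMSO the 2 calls under the block were both higher, so ZNF503 was not among them (adjusted p = 0.0694 by edgeR). The correction with library 1 alone, and leaving out libraries of groups not compared, were chosen after seeing the data.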
